A study of Homo sapiens with 6 samples.

Results

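The genes described here are the heat shock chaperones that work outside the endoplasmic reticulum, together with their transcription factors and partners. They were taken from a list of gene names covering the heat shock factors, the HSP70, HSP110 and HSP90 chaperones, the DNAJ co-chaperones, the small heat shock proteins, the BAG and other co-chaperones, the subunits of the cytosolic chaperonin and the mitochondrial chaperones and proteases. All 47 listed genes had a row among the 40295 rows of the gene table, HSPB11 under its current symbol IFT25. Genes were taken by name and family and not by a cutoff on their values, but the list was drawn up with earlier results of these data known. The study compared HDQ-P1 cells, an established human breast cancer cell line grown in high-glucose medium with serum, after 48 h with 1 μM Y-320 against cells left untreated, and 3 libraries were sequenced from each group. Y-320 is a small molecule that the study examined as an enhancer of the reading through of premature stop codons. No source says that the untreated cells were given solvent, and nothing in the labels says whether the 3 libraries of a group came from separate cultures, so the tests measure only the spread between these libraries.

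Chaperones bind proteins that are newly made, unfolded or on their way to another compartment and help them reach or keep their shape. HSP70 works in cycles with DNAJ proteins, which bring it clients and start its hydrolysis of ATP, and with nucleotide exchange factors such as HSP110 and the BAG proteins, which let the client go. HSP90 takes over many signalling proteins from HSP70, and the ring-shaped chaperonin TRiC, also called CCT, folds actin, tubulin and other cytosolic proteins. Mitochondria have their own set, in which HSPA9 pulls proteins in, HSPD1 and HSPE1 form a folding chamber, and the proteases LONP1 and CLPP remove damaged proteins. When unfolded proteins build up in the cytosol, heat shock factor 1 binds heat shock elements in the promoters of many of these genes and raises their transcription.

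With Y-320 the chaperone genes moved in both directions, mostly by small amounts. Of the 43 members that could be tested, 8 were higher and 22 were lower (quasi-likelihood F test in edgeR, p adjusted by Benjamini-Hochberg over the 16580 genes tested, threshold 0.05, n = 3 and 3), beside 26.2% of all genes tested that were higher and 25.4% that were lower. Among the 8 were LONP1, DNAJB2, HSPA13 and HSPA9, and among the 22 were HSPA2, HSP90AA1, HSPE1 and most TRiC subunits. The 30 members past the threshold changed by a median of 0.30 on the log2 scale without regard to sign. Of the 43 tested, 3 were past it and higher by 0.5 or more, and 1 was lower by 0.5 or more. The same held for 8.44% and 7.28% of all genes tested. Without regard to sign, the median log2 fold change was 0.22 for the 43 members and 0.21 for all genes tested, so the typical size was similar. Treated libraries lay above all untreated ones for 10 tested members and below them for 22, while this held for 29.8% and 29.4% of all genes tested. The median log2 fold change of the 43 members was -0.13, and that of all genes tested was 0.00097. Cytosolic HSP70, HSP110, HSP90, DNAJ, co-chaperone and TRiC genes made up 30 of the tested members, and 19 of these were lower and 2 higher.

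**Figure D1:**
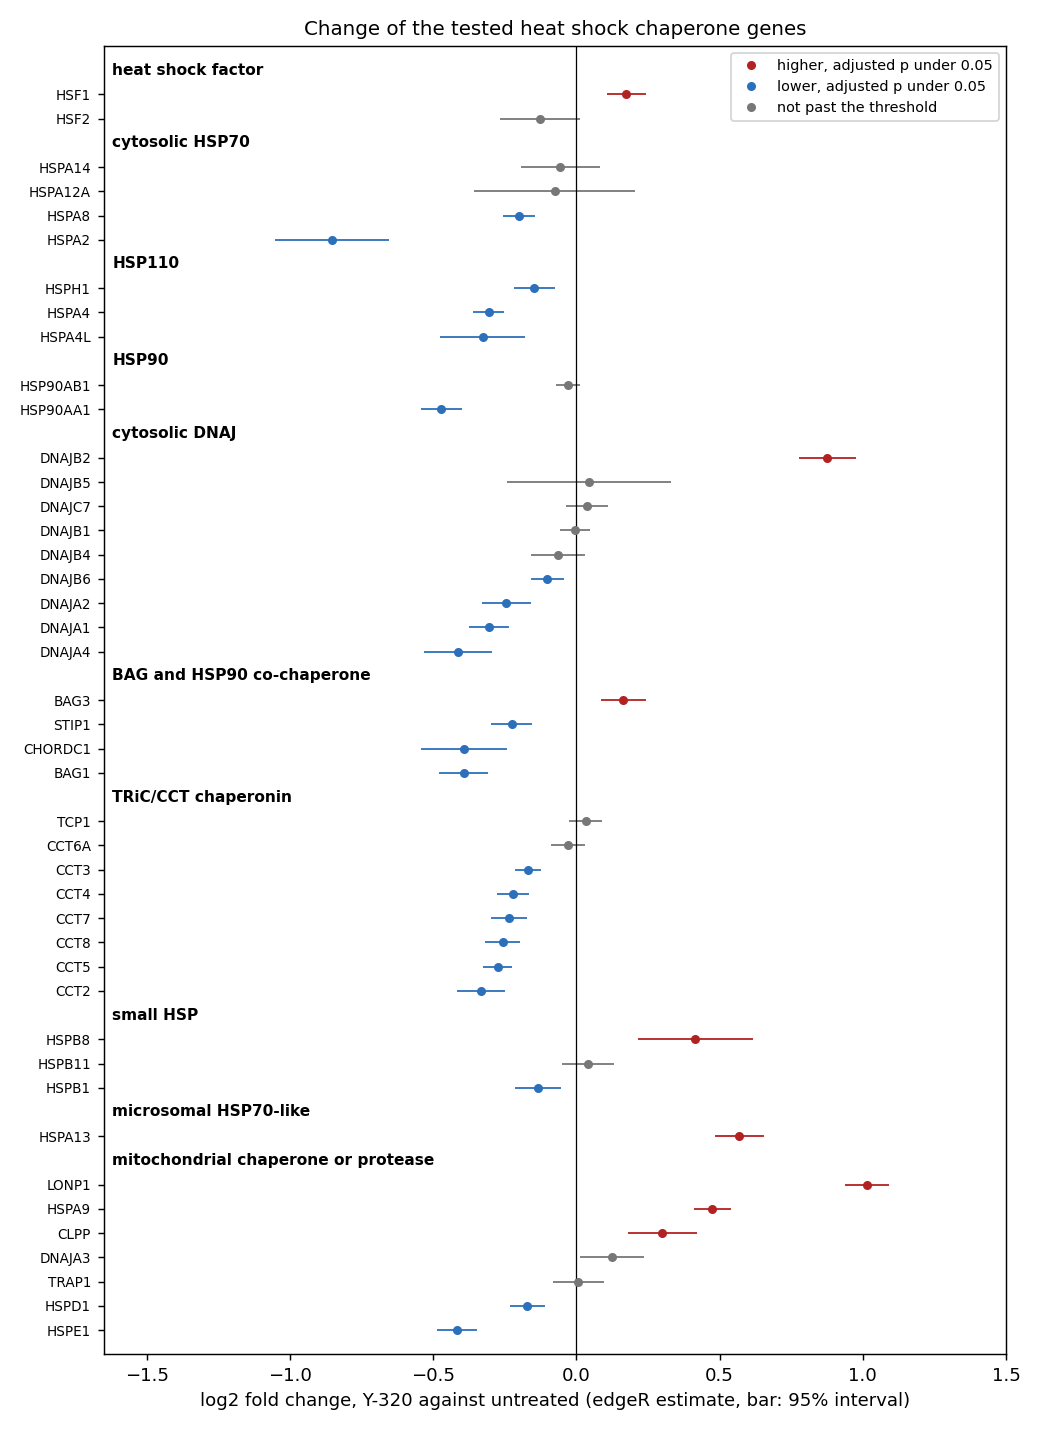
The log2 fold change (Y-320 against untreated) of the 43 tested members, grouped by role, with its 95% interval from the edgeR fit on 3 libraries a group. Red points passed the threshold as higher, blue points as lower and grey points did not pass. LONP1 at 1.02 and DNAJB2 at 0.88 lie farthest to the right, and HSPA2 at -0.85 farthest to the left.

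Levels are given as CPM, which are counts scaled to a common library total by the TMM method. They are relative to the rest of a library, so a rise or fall in CPM does not give the change in RNA per cell. The libraries held between 21045401 and 22740535 counts, so that the limit set by a count of 0 is 3 counts, or 0.132 to 0.143 CPM, which covers counting error only. Summed over all 47 genes, the members reached 13639 ± 310.4 CPM in untreated and 12457 ± 94.8 CPM in Y-320 libraries (SD, n = 3), or 1.36% and 1.25% of all counts. Of the 47 members 24 had a mean above 100 CPM, 4 had a mean under 1 CPM and 3 of those were listed at 0 in all 6 libraries. Among the 24 above 100 CPM, 16 were lower and 3 higher, and among the 19 tested at or below it, 6 were lower and 5 higher. Of all genes tested, 25.4% were lower and 26.2% higher. These shares cover genes of all levels and were not computed by level, so neither group has a matched share beside it. Cell type markers were checked because the RNA came from whole cultures, in which fewer cells of a type and less RNA per cell cannot be told apart. All 6 epithelial markers were present, and their summed level was 10916 to 11425 CPM in untreated and 6834 to 6895 CPM in Y-320 libraries. The 5 fibroblast markers, 4 of which reached 1 CPM, summed to 246 to 271 CPM in untreated and 125 to 139.9 CPM in Y-320 libraries. Of the 5 leukocyte markers only 1 reached 1 CPM, with sums of 36.6 to 38.3 CPM and 67.2 to 73.3 CPM. These marker sums differed between the groups, and their part in the results on chaperones was not tested.

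HSF1 is the factor that switches on chaperone genes upon proteotoxic stress. Its level was 112, 114 and 108 CPM in the 3 untreated libraries and 127, 126 and 123 CPM in the 3 Y-320 libraries. All treated libraries were above all untreated ones, and HSF1 rose slightly, with a log2 fold change of 0.17 (SE 0.030, adjusted p = 7.17e-04). HSF2, a related factor that can form mixed trimers with HSF1, was at 19.9, 20.0 and 19.6 CPM without and 19.8, 17.3 and 17.4 CPM with Y-320. Those values overlapped, and the log2 fold change of -0.13 did not pass the threshold (95% interval -0.27 to 0.012, adjusted p = 0.117). Leaving out Y-320 replicate 1, whose HSF2 level lay among the untreated ones, moved it to -0.20 and past the threshold. RNA levels of these genes do not measure the activity of the factors, which is largely set by trimer formation and modification of the proteins.

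Because HSF1 acts through heat shock elements, the promoters of the members were searched for 3 such units in alternating orientation. The letters searched were GAANNTTCNNGAA on either strand, where overlapping matches were merged, in windows from 250 bases before to 50 bases after each transcript start given by RefSeq on GRCh38.p14. A window was at hand for 42 members and not for HSF1, HSPA14, CLPP, CRYAB and CCT6A. The element was present in 8 of the 42 members (19.0%) and in 166 of all 27305 genes (0.608%), or, counted by window, in 8 of 61 (13.1%) and 172 of 35116 (0.490%). The members with it were CHORDC1, DNAJA1, DNAJB6, HSP90AA1, HSP90AB1, HSPA6, HSPA8 and HSPD1. They are shown here because they are the members that carry the letters HSF1 is known to bind, with the matched bases in capitals and each line reading 5′ to 3′ on the strand of the gene, for all but DNAJA1, whose match lies just after its start.
HSP90AA1 (chr14:102087100-102087152, minus strand): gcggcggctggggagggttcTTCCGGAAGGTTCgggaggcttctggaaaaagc
HSP90AB1, far site (chr6:44247758-44247810, plus strand): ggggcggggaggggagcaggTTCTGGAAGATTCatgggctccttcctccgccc
HSP90AB1, near site (chr6:44247811-44247863, plus strand): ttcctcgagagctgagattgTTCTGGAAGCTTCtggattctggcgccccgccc
HSPA8, near site (chr11:123062171-123062199, minus strand): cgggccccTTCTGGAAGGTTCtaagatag
HSPA8, far site (chr11:123062346-123062374, minus strand): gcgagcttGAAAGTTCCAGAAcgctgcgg
HSPA6 (chr1:161524446-161524498, plus strand): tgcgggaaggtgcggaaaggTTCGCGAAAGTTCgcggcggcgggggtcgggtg
HSPD1 (chr2:197500062-197500090, minus strand): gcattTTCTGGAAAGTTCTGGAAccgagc
DNAJB6 (chr7:157336853-157336905, plus strand): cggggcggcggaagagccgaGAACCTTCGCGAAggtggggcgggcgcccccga
CHORDC1 (chr11:90223084-90223112, minus strand): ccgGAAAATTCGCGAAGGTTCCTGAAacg

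In GENCODE 44 the matches of HSP90AA1, HSP90AB1 and DNAJB6 fall in introns of longer transcripts, those of HSPA6 and CHORDC1 lie upstream of the gene, and those of HSPA8 and HSPD1 overlap exons of transcripts other than the canonical ones. The CHORDC1 match is a run of 23 bases with 3 overlapping elements, and the HSPD1 match is a run of 18 bases with 2. The HSPD1 run ends 228 bases before the HSPD1 start and lies between this start and HSPE1, which is read in the opposite direction. The only RefSeq window of HSPE1 begins at position 197500129 of chromosome 2, past the run, so that HSPE1 was not counted as holding an element. GENCODE 44 places the start of HSPE1 earlier, at position 197500140, from which the run is 55 to 72 bases away and would lie in the window. Of the 7 members with an element that were tested, 6 were lower and 0 higher, with log2 fold changes from -0.47 for HSP90AA1 to -0.028 for HSP90AB1. The shares over all genes tested were 25.4% lower and 26.2% higher. HSPA6, which holds an element but had too few reads to be tested, had higher counts in all treated than in all untreated libraries, as given below. The 36 tested members counted as without one, HSPE1 among them, included all 8 that were higher and 16 that were lower, and this split was not tested. The search took exact letters only, so members counted as without an element may hold elements that differ from them. HSPH1, DNAJB1 and BAG3, given below as heat-inducible, were counted as without one. So were HSPA1A and HSPA1B, given below as among the genes that respond most to heat. A match describes the letters of the window and does not show that a factor is bound there.

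Of the 4 cytosolic HSP70 genes that could be tested, HSPA8 and HSPA2 fell and none rose past the threshold, beside 25.4% and 26.2% of all genes tested. HSPA6, which was too scarce to be tested, is described below. HSPA8, the constitutive HSP70 that most cells hold in large amounts, was at 1692, 1652 and 1598 CPM without and 1469, 1406 and 1427 CPM with Y-320. The groups did not overlap, and the gene fell by 0.20 on the log2 scale (SE 0.025, adjusted p = 7.55e-05). Its sequence limits this value, since 31.02% of its 31-base words also occur in other annotated genes, among them processed copies that could take or give reads. HSPA2, best known from the male germ line (ENSG00000126803, chr14:64535905-64546173, plus strand, hg38), showed the largest decrease of all members, from 35.9, 35.9 and 33.4 CPM to 22.9, 17.4 and 17.8 CPM. Y-320 replicate 1 was higher than the other treated libraries and still well under the untreated ones, and the log2 fold change was -0.85 (SE 0.090, adjusted p = 2.04e-05), ranging from -0.99 to -0.78 when single libraries were left out. HSPA14, a partner of the ribosome-associated J-protein, and HSPA12A, a distant relative, did not pass the threshold, with 95% intervals of -0.19 to 0.082 and -0.36 to 0.21.

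The 3 stress-inducible HSP70 genes were either listed at 0 or barely counted. HSPA1A and HSPA1B, which encode nearly the same protein and are among the genes that respond most to heat, were listed at 0 in all 6 libraries. This cannot be read as absence of the RNA. Both lie in the major histocompatibility region of chromosome 6, at chr6:31815543-31817946 and chr6:31827738-31830254 on hg38, and 31 of the 179 protein-coding genes that start between positions 28503296 and 33453970 were listed at 0 in all libraries (17.3%, against 9.26% of all 19810), including PPP1R11, a phosphatase regulator that most cells use. The 31 also included olfactory receptor genes such as OR2W1 and OR2J1, and the immune cell genes AIF1 and HLA-DRA. Why each of these genes was at 0 was not tested. Of 16 alternate sequences of chromosome 6 that come with the hg38 genome, 4 held between 95.8% and 97.7% of the 31-base words of HSPA1A and between 95.1% and 98.8% of those of HSPA1B. The gene table had 4905 rows with identifiers that GENCODE 44 does not list, which held 3.21% to 3.47% of the counts in a library, and whether reads of HSPA1A and HSPA1B were counted in such rows was not tested. HSPA6, a strictly inducible HSP70, had 3, 6 and 4.94 estimated counts in the untreated and 12, 15 and 8.81 in the Y-320 libraries. Treated libraries were all above untreated ones, but the gene fell short of the filter on low counts and shares 57.1% of its words with other genes, chiefly HSPA7. Tested without a filter, its log2 fold change was 1.30 with an adjusted p of 0.0393, and with a library left out the adjusted p ran from 0.0316 without Y-320 replicate 3 to 0.0954 without untreated replicate 1, and was 0.0367 and 0.0636 without untreated replicates 2 and 3.

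All 3 HSP110 genes were lower, beside 25.4% of all genes tested. Their products are relatives of HSP70 that act mainly as its nucleotide exchange factors. HSPA4 was at 364, 350.4 and 348 CPM in untreated and 284, 287 and 289 CPM in Y-320 libraries. The treated libraries lay close together below the untreated ones, with a log2 fold change of -0.31 (SE 0.025, adjusted p = 3.08e-06). HSPA4L, its less abundant relative, was at 21.4, 18.5 and 20.1 CPM and 16.3, 16.3 and 15.1 CPM. Again all treated libraries were lower, with a log2 fold change of -0.33 (SE 0.066, adjusted p = 0.002). HSPH1, also called HSP105 and the heat-inducible member of the group, was at 389.5, 362 and 373 CPM without and 350.2, 334 and 331 CPM with Y-320. Its groups were separated by a narrow gap, and it fell by 0.15 on the log2 scale (SE 0.032, adjusted p = 0.00323).

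Of the 2 cytosolic HSP90 genes 1 fell and the other did not pass the threshold, beside 25.4% lower and 26.2% higher of all genes tested. HSP90AA1 (ENSG00000080824, chr14:102080742-102139699, minus strand, hg38) encodes the stress-inducible HSP90 alpha, and its level was 1741, 1624 and 1608 CPM in untreated and 1234, 1170.3 and 1180.5 CPM in Y-320 libraries. Every treated library was well below every untreated one, and HSP90AA1 fell by 0.47 on the log2 scale (SE 0.032, adjusted p = 7.99e-07). HSP90AB1, which encodes the constitutive HSP90 beta, was at 2389.9, 2349.9 and 2308 CPM and 2282, 2302 and 2328 CPM. These values overlapped, and the log2 fold change of -0.028 did not pass the threshold (95% interval -0.070 to 0.013, adjusted p = 0.237), although it did with upper-quartile scaling. HSP90AA1 RNA amounted to 0.728, 0.691 and 0.697 of the HSP90AB1 level, in CPM, in the untreated libraries and to 0.541, 0.508 and 0.507 in the Y-320 libraries. This ratio was lower in each treated library than in each untreated one, and, like the other ratios below, it was chosen after the values were seen and is given without a test. Summed over both genes, HSP90 RNA was at 4007 ± 111 CPM without and 3499 ± 23.5 CPM with Y-320 (SD, n = 3). Copies of both genes are found elsewhere in the genome, and 29.9% of the words of HSP90AA1 and 35.7% of those of HSP90AB1 were shared with other annotated genes.

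**Figure D2:**
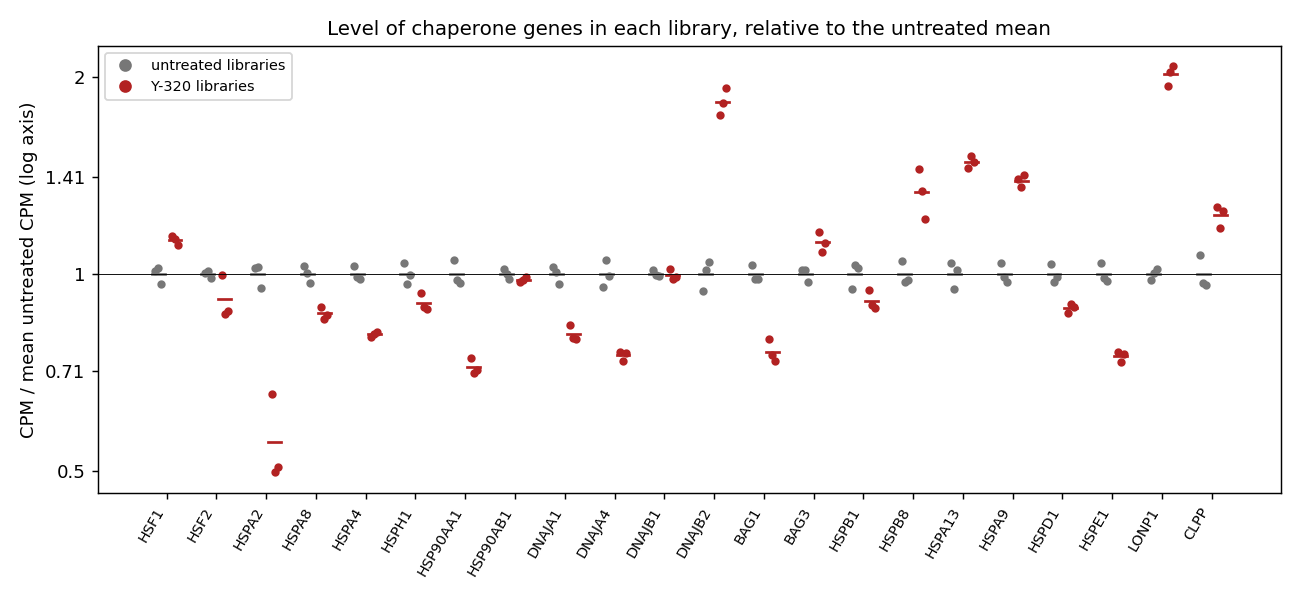
The level of 22 members in each library, as CPM divided by the mean CPM of the untreated libraries, on a log axis. Grey points are untreated and red points Y-320 libraries, and the short lines are group means. The HSP90AB1 and DNAJB1 groups overlap around 1, whereas LONP1 and DNAJB2 lie near 2 and HSPA2 near 0.5 in the treated libraries.

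DNAJ proteins decide which clients HSP70 receives. Of the 9 cytosolic DNAJ genes 4 fell, 1 rose and 4 did not pass the threshold, beside 25.4% lower and 26.2% higher of all genes tested. Summed over the 9 genes, the level was 1157 ± 13.5 CPM without and 1152 ± 11.2 CPM with Y-320 (SD, n = 3). DNAJB2 (ENSG00000135924, chr2:219279342-219286898, plus strand, hg38), whose product binds ubiquitin and hands clients to the proteasome, was the member that rose, from 84.1, 90.7 and 93.2 CPM to 157, 163 and 172 CPM. No treated library came near the untreated range, and the increase was 1.84-fold, or 0.88 on the log2 scale (SE 0.045, adjusted p = 9.54e-08). The cytosolic type I genes all went the other way. DNAJA1, a general partner of HSPA8, was at 259, 255 and 244 CPM without and 211, 202 and 201 CPM with Y-320. DNAJA1 thus fell with no overlap of the groups, by 0.30 on the log2 scale (SE 0.031, adjusted p = 1.67e-05). DNAJA4, the third of these genes, was at 22.3, 24.5 and 23.2 CPM and 17.7, 17.2 and 17.6 CPM, with the treated libraries close together at the lower level and a log2 fold change of -0.41 (SE 0.053, adjusted p = 9.07e-05). DNAJA2 had a log2 fold change of -0.25 (adjusted p = 3.70e-04), and DNAJB6, known for keeping aggregation-prone proteins soluble, fell by 0.10 on the log2 scale (adjusted p = 0.00735).

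DNAJB1, the HSP40 that is induced together with HSP70 upon heat shock, did not pass the threshold. Its level was 401, 394 and 392 CPM in the untreated and 403, 389 and 392 CPM in the Y-320 libraries. The groups overlapped, and the 95% interval of the log2 fold change ran from -0.056 to 0.049 (adjusted p = 0.907). Against this gene, DNAJB2 stood at a CPM ratio of 0.210, 0.230 and 0.238 without and 0.388, 0.421 and 0.439 with Y-320. DNAJB4, DNAJB5 and DNAJC7 did not pass either, with log2 fold changes of -0.065, 0.043 and 0.036. DNAJB5 was the scarcest of them, at 4.87 ± 0.366 CPM in untreated libraries (SD, n = 3), and its interval was wide, from -0.24 to 0.33.

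All 4 co-chaperones of the BAG and HSP90 group passed the threshold, 3 as lower and BAG3 as higher. Over all genes tested, 25.4% were lower and 26.2% higher. BAG3, a heat-inducible exchange factor of HSP70 that directs clients to autophagy, was at 74.8, 74.7 and 71.7 CPM without and 85.7, 79.8 and 82.3 CPM with Y-320. The treated libraries were all above the untreated ones, by a small margin, with a log2 fold change of 0.16 (SE 0.036, adjusted p = 0.00305). BAG1, which works with HSP70 on clients bound for the proteasome, was at 94.1, 89.6 and 89.5 CPM and 72.6, 68.4 and 66.9 CPM. In contrast to BAG3, it fell by 0.39 on the log2 scale (SE 0.038, adjusted p = 1.11e-05). CHORDC1, a zinc-binding partner of HSP90 whose promoter holds the run of 3 overlapping elements, was at 19.7, 18.2 and 18.1 CPM and 13.5, 13.8 and 15.3 CPM. The treated values were all lower and the log2 fold change was -0.39 (SE 0.068, adjusted p = 6.99e-04). STIP1, also known as HOP, which connects HSP70 with HSP90, went from 229.8 ± 6.57 to 196 ± 6.49 CPM (SD, n = 3), a log2 fold change of -0.23 (adjusted p = 1.86e-04).

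TRiC is built from 8 related subunits that occupy fixed places in each ring. With Y-320, 6 of the 8 genes were lower and none higher, beside 25.4% and 26.2% of all genes tested. CCT2 showed the largest decrease, from 241, 226 and 218 CPM to 179.8, 185 and 179 CPM. With no overlap between the groups, its log2 fold change was -0.33 (SE 0.037, adjusted p = 3.33e-05). CCT5 was at 747, 727 and 714 CPM in untreated and 610.2, 602 and 597 CPM in Y-320 libraries. It also fell without overlap, by 0.27 on the log2 scale (SE 0.023, adjusted p = 3.81e-06), and 34.2% of its words were shared with other annotated genes. CCT8, CCT7, CCT4 and CCT3 had log2 fold changes of -0.26, -0.24, -0.22 and -0.17. TCP1, the subunit after which the complex was first named, was at 421, 404 and 397 CPM without and 417, 419 and 414 CPM with Y-320. Its groups overlapped, with a 95% interval of -0.025 to 0.090 (adjusted p = 0.324), and CCT6A did not pass the threshold either (95% interval -0.088 to 0.029, adjusted p = 0.386). Measured per kilobase of the canonical transcript, which allows genes to be compared, untreated levels ran from 119 ± 6.29 CPM for CCT2 to 271 ± 8.93 CPM for CCT7, 2.27-fold apart. In Y-320 libraries the same genes were lowest and highest, at 94.7 ± 1.71 and 229.8 ± 4.30 CPM per kilobase, 2.43-fold apart. TCP1 stood at 173 ± 5.29 CPM per kilobase in untreated and 177 ± 0.924 in treated cells, and so moved from below CCT4 (192 ± 4.21 and 165 ± 3.08) to above it.

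**Figure D3:**
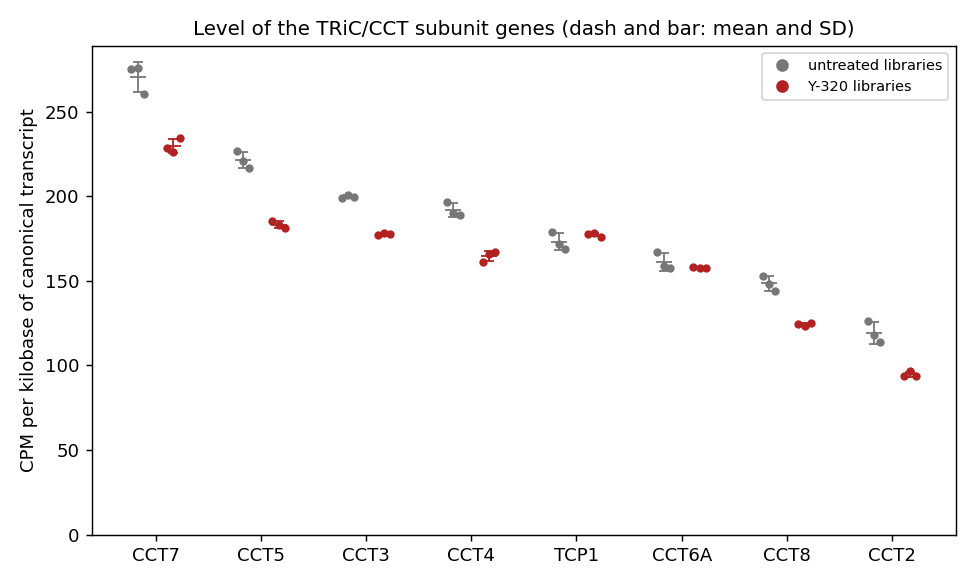
The level of the 8 TRiC subunit genes in each library, as CPM per kilobase of the canonical transcript, ordered by the untreated mean. Grey is untreated and red Y-320, and dashes with bars are means with SD (n = 3). Treated libraries lie below untreated ones for all subunits but TCP1 and CCT6A.

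The small heat shock proteins, which hold unfolded proteins without using ATP, did not share a direction. HSPB1, or HSP27, was at 519.2, 565 and 560.1 CPM in untreated and 518.9, 492 and 487 CPM in Y-320 libraries. Y-320 replicate 1 lay just below untreated replicate 1, and the decrease of 0.13 on the log2 scale was small (SE 0.036, adjusted p = 0.00985). HSPB8, the partner of BAG3 in chaperone-assisted autophagy, was much less abundant, at 7.70, 7.14 and 7.20 CPM and 10.6, 9.84 and 8.94 CPM. It rose in all treated libraries, with a log2 fold change of 0.42 (SE 0.090, adjusted p = 0.00302). HSPB11, which as IFT25 belongs to the transport machinery of cilia, was between 27.4 and 28.7 CPM without and between 28.8 and 29.0 CPM with Y-320 and did not pass the threshold (log2 fold change 0.040, adjusted p = 0.493). CRYAB, the alpha B-crystallin of lens and muscle, was listed at 0 in all libraries. Per kilobase, HSPB1 was at 706 ± 32.5 CPM in untreated cells, which did not differ beyond the SDs from HSPA8 at 728 ± 20.8 and lay under HSP90AB1 at 919.5 ± 16.0.

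The mitochondrial members moved in both directions. The proteases LONP1 and CLPP and the import motor HSPA9 rose, while the 2 parts of the folding chamber fell. Thus 3 of the 7 tested were higher and 2 lower, where 26.2% and 25.4% of all genes tested were. LONP1 (ENSG00000196365, chr19:5691834-5720572, minus strand, hg38), the ATP-dependent protease that removes oxidized and misfolded matrix proteins, was at 59.9, 61.3 and 62.3 CPM in untreated and 119, 125 and 127 CPM in Y-320 libraries. With a wide gap between the groups it rose 2.02-fold, the largest change of any member tested, or 1.02 on the log2 scale (SE 0.035, adjusted p = 6.59e-09). CLPP, the proteolytic part of the other large matrix protease, was at 27.3, 24.7 and 24.6 CPM and 32.4, 30.0 and 31.9 CPM. The increase was smaller but again without overlap, at 0.30 on the log2 scale (SE 0.054, adjusted p = 9.21e-04). LONP1 over CLPP, in CPM, was 2.19, 2.49 and 2.54 in untreated and 3.67, 4.16 and 3.99 in Y-320 libraries. HSPA9, or mortalin, the mitochondrial HSP70, was at 436, 415 and 407 CPM without and 585, 569.6 and 594 CPM with Y-320. All treated libraries exceeded all untreated ones, and HSPA9 rose 1.39-fold, or by 0.47 on the log2 scale (SE 0.029, adjusted p = 3.52e-07).

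HSPD1, the HSP60 of the folding chamber, was at 581, 545 and 555 CPM in untreated and 489, 505 and 499 CPM in Y-320 libraries. HSPE1, the HSP10 lid of the chamber, was at 206, 195 and 193 CPM and 150.3, 145 and 149.7 CPM. Both fell without overlap, HSPD1 with a log2 fold change of -0.17 (SE 0.027, adjusted p = 4.04e-04) and HSPE1 with one of -0.42 (SE 0.032, adjusted p = 1.81e-06). The genes lie head to head, with the printed element between their starts. The HSPE1 over HSPD1 ratio in CPM was 0.355, 0.358 and 0.348 in untreated and 0.308, 0.288 and 0.300 in Y-320 libraries. It was lower in each treated library, and 21.7% of the words of HSPE1 and 17.4% of those of HSPD1 were shared with other annotated genes. HSPA9 over HSPD1, in contrast, was 0.750, 0.762 and 0.735 without and 1.20, 1.13 and 1.19 with Y-320. DNAJA3, the mitochondrial DNAJ partner of HSPA9, was higher in each treated library but did not pass the threshold (log2 fold change 0.12, 95% interval 0.011 to 0.24, adjusted p = 0.0637), although it did with library size scaling, with the replicate block and without untreated replicate 2. TRAP1, the mitochondrial HSP90, had overlapping groups and a 95% interval of -0.083 to 0.10 (adjusted p = 0.914). HSPA13 is an HSP70-like protein of microsomes and is the member that lies least clearly outside the endoplasmic reticulum. Its RNA was at 67.8, 61.9 and 66.2 CPM without and 94.9, 99.1 and 96.8 CPM with Y-320. The groups were far apart, and HSPA13 rose by 0.57 on the log2 scale (SE 0.038, adjusted p = 6.67e-07).

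**Figure D4:**
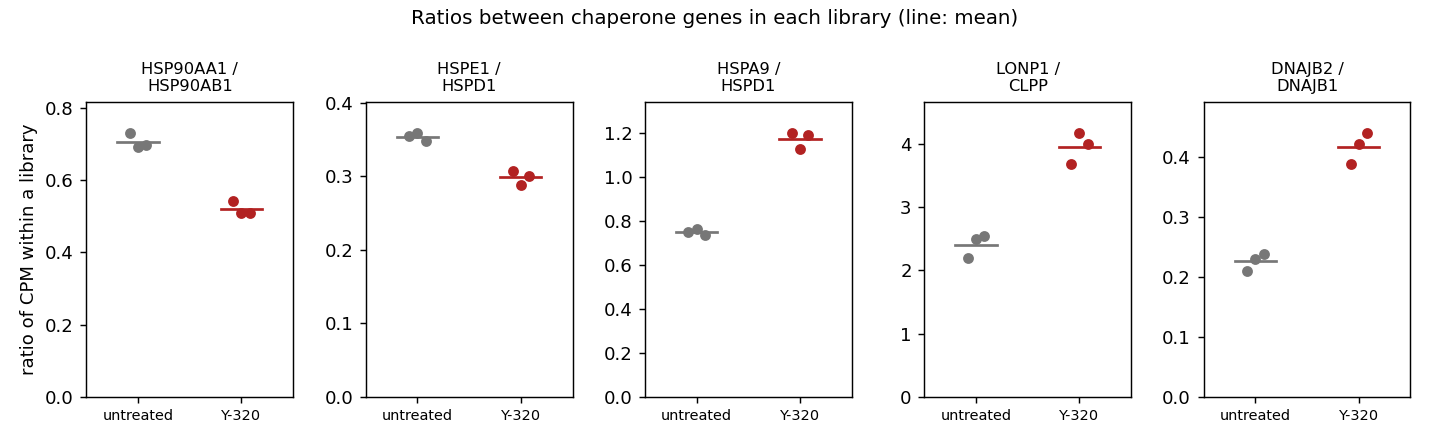
Ratios of the CPM of 2 chaperone genes within each library, with untreated libraries in grey, Y-320 libraries in red and lines for group means. The axes start at 0. HSP90AA1 over HSP90AB1 and HSPE1 over HSPD1 were lower, and HSPA9 over HSPD1, LONP1 over CLPP and DNAJB2 over DNAJB1 higher, in all treated than in all untreated libraries.

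Genes that work with the members were listed from general knowledge of the pathway and described by the same fit. Of 22 further genes listed as HSP90 and HSP70 co-chaperones, 8 were lower and 4 higher, to be read against the 25.4% and 26.2% of all genes tested. BAG2, an inhibitor of client ubiquitination by the HSP70 partner STUB1, had a log2 fold change of -0.45 (adjusted p = 1.99e-05), and BAG5, an exchange factor with several BAG domains, one of 0.46 (adjusted p = 5.25e-06). TOMM34, HSBP1 and CACYBP fell by 0.33, 0.28 and 0.26 on the log2 scale. HSBP1 was counted in this list although it is a heat shock factor binding protein. Of 12 genes listed as prefoldin and TRiC assembly factors, 2 were higher and 2 lower, beside the 26.2% and 25.4% of all genes tested. Most deliver actin and tubulin to TRiC or help to build it, but the list also holds a further TRiC subunit gene. PFDN2 was at 0.27, PDRG1 at 0.18, PFDN4 at -0.15 and PFDN5 at -0.10, as log2 fold changes. The TRiC subunits among the members, of which 6 of 8 fell, had a median log2 fold change of -0.23, and this list of 12 one of -0.022.

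Of 14 genes of the mitochondrial import motor and mitochondrial proteases, 7 were higher and 4 lower, with a median log2 fold change of 0.098, where 26.2% and 25.4% of all genes tested were higher and lower. GRPEL2, a nucleotide exchange factor of HSPA9, went from 29.2, 25.5 and 27.7 CPM to 40.6, 42.3 and 40.9 CPM. It rose in all treated libraries, by 0.59 on the log2 scale (SE 0.051, adjusted p = 5.19e-06). TIMM44, which tethers HSPA9 to the import channel, and PAM16, which regulates its DNAJ partner there, had log2 fold changes of 0.42 and 0.34 (adjusted p = 1.93e-06 and 0.0367). HTRA2, a protease of the space between the membranes, rose by 0.36 on the log2 scale (adjusted p = 4.88e-05), and OMA1, the stress-activated protease of the inner membrane, fell by 0.27 (adjusted p = 0.0242).

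Of 24 other DNAJ genes, 21 were tested, 6 were higher and 3 lower, and the share that was higher is near the 26.2% of all genes tested, beside 25.4% that were lower. DNAJC27, DNAJC9 and DNAJC2 had log2 fold changes of 0.40, 0.30 and 0.24, and DNAJC15 and DNAJC8 had ones of -0.29 and -0.28. Of 17 other genes known as targets of HSF1, 16 were tested, 7 were higher and 6 lower, against the same 26.2% and 25.4%, and 5 of the 17 were also in the list of co-chaperones. SQSTM1, the autophagy receptor p62, went from 435 ± 12.0 to 795 ± 13.7 CPM (SD, n = 3), a log2 fold change of 0.87 (adjusted p = 2.71e-09). ZFAND2A, an arsenite-inducible partner of the proteasome, and DEDD2, a death-effector domain protein, rose by 0.65 and 0.42 on the log2 scale, while BAG2 was lower. SQSTM1, ZFAND2A and DEDD2, unlike most members, are not chaperones. A last list of 10 genes held HSP70 and small heat shock genes and a heat shock factor. Of the 10, 4 were listed at 0 and 3 were tested, the heat shock factor among them. None of the 3 passed the threshold in edgeR, DESeq2 or limma-voom, or had an unadjusted p under 0.05 in edgeR.

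**Figure D5:**
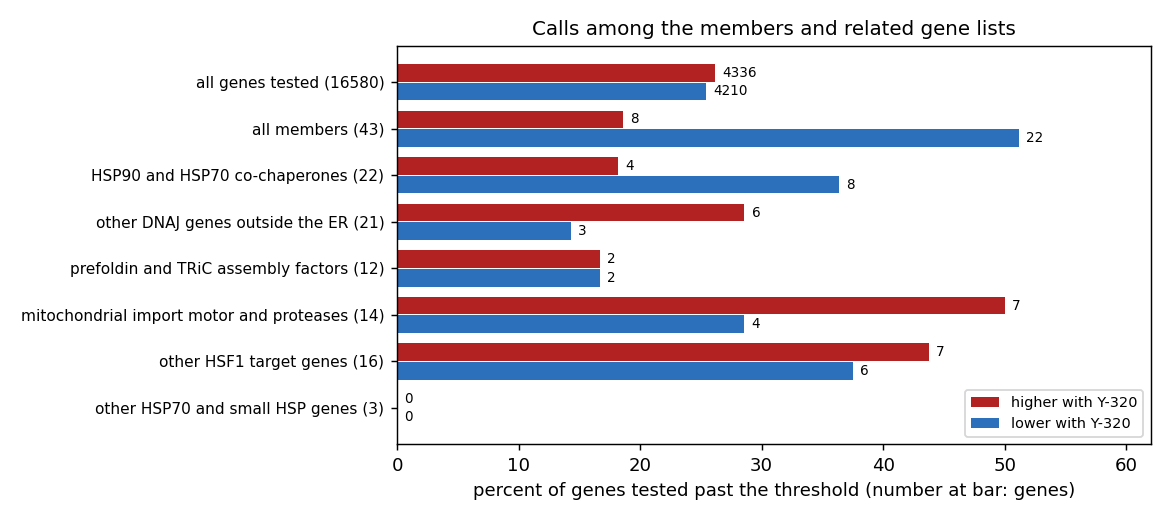
The share of tested genes that were higher (red) or lower (blue) in the treated libraries past the adjusted threshold of 0.05, for all genes, the members and the related lists, with the number of genes at each bar and the number tested in brackets. Among the members 22 of 43 were lower and 8 higher, and among the mitochondrial import motor and proteases 7 of 14 were higher and 4 lower.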

How the data were processed

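The authors sequenced total RNA of HDQ-P1 cells on an Illumina NextSeq 500 and deposited estimated counts per gene for 6 libraries, without normalization. The submitters' processing notes name kallisto 0.46.1, GRCh38 and hg38. kallisto divides reads that match several transcripts, so 36.0% of the deposited values were not whole (tolerance 0.01), and the Ensembl release is not given in the sources used here. The labels put 3 libraries in each group and give no batch. Depth was 21045401 to 22740535 counts per library.

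The estimated counts were rounded. edgeR 4.0.16 in R 4.3.3 removed low rows with filterByExpr (minimum count 10, total 15), scaled by TMM, and fitted the quasi-likelihood model without a block on 16580 genes, adjusting p by Benjamini-Hochberg, threshold 0.05. Simulated counts with 200 changed genes were used to check the fit. DESeq2 1.42.0, limma 3.58.1 (voom), other filters and scalings, a replicate block, unrounded counts, summed rows of 1 symbol, a threshold of 0.01 and leaving out each library were alternatives. Python 3.11.15, numpy 2.4.6, pandas 2.3.3 and matplotlib 3.10.9 made tables and plots. Positions, canonical transcript lengths and the share of 31-base words found in other genes came from GENCODE 44 on hg38, promoter windows from RefSeq.

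The members and the related lists were chosen with earlier results of these data known. All members may be named. Values in every library are given for HSF1, HSF2, HSPA1A, HSPA1B, HSPA8, HSPH1, HSP90AA1, HSP90AB1, HSPD1, HSPE1, HSPA9, HSPB1, DNAJB1, BAG3 and TCP1, for the 8 highest and 8 lowest log2 fold changes past the threshold with a mean of at least 1 CPM, and for the largest change in each role. At most 5 genes of a related list are named, those with the largest change past the threshold. Values of further members are given where a group is described. A few listed genes are not reported here by name, but list counts and sums include them.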

Additional observations from a re-analysis of the deposited data

How the results depend on the processing

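The 30 members past the threshold kept their direction and their side of it under all alternatives that were run, namely no filter, at least 10 counts in every library, scaling by library size or by the upper quartile, limma-voom, DESeq2, unrounded counts, a replicate block, summed rows of 1 symbol, an adjusted p of 0.01 and leaving out each library. Leaving out single libraries gave 8 to 10 members higher, 22 to 23 lower and a median log2 fold change of -0.16 to -0.096. Of the 16840 to 16892 genes then tested, 3917 to 4047 were higher and 3748 to 3925 lower. Some members that did not pass changed sign around 0. DNAJB1 was at 0.00060 without a filter, at 0.0092 with library size scaling and at -0.019 to 0.0086 with a library left out. TRAP1 was at -0.022 with upper-quartile scaling and at -0.029 to 0.051 with a library left out, and the same step gave -0.18 to 0.078 for HSPA12A and -0.023 to 0.15 for DNAJB5. Past the threshold came HSP90AB1 with upper-quartile scaling, HSF2 without Y-320 replicate 1, and DNAJA3 with library size scaling, the replicate block or no untreated replicate 2. The cause was not tested. Deviations of same-numbered libraries correlated at -0.0024, 0.015 and 0.0022, so no shared effect of the replicate number was seen. The labels do not say whether same-numbered libraries were handled together, and these correlations cannot settle it. With the replicate block 9 members were higher and 22 lower, beside 4285 higher and 4159 lower of the 16580 genes tested. Summing HSPA1A with HSPA1B gave no value, since both were listed at 0. Depth limits HSPA6 most, with 3 to 15 counts a library.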
